A study of Mus musculus with 14 samples.

Results

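Fully grown mouse oocytes, arrested at the germinal vesicle (GV) stage in prophase of the first meiotic division, hold a store of maternal mRNA that they do not yet translate. Transcripts of this store and the proteins that keep or release it were followed here. The genes were chosen by symbol: the stored mRNAs Mos, Plat, Slbp and Spin1, the RNA-binding regulators Cpeb1, Dazl, Zar1 and Ybx2, and the poly(A)-binding proteins Pabpc1l and Pabpn1l. Of these 10 genes, 8 were matched to a probe, by 10 of the 25697 probes of the array, which name 16593 genes. Spin1 and Ybx2 had 2 probes each. Zar1, a factor that binds maternal mRNA and is needed for the oocyte-to-embryo transition, and Pabpc1l, the cytoplasmic poly(A)-binding protein of oocytes, matched no named probe and were not analysed here.

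A dormant maternal mRNA carries a short poly(A) tail and is masked by RNA-binding proteins. In mouse oocytes the Y-box protein encoded by Ybx2 coats and stabilizes such mRNAs, and the protein of Cpeb1 binds the cytoplasmic polyadenylation element in their 3′ ends. When meiosis resumes, phosphorylated CPEB1 promotes tail elongation, the protein of Dazl promotes translation of further transcripts, and poly(A)-binding proteins occupy the lengthened tails. The arrays measured amplified RNA (NuGEN kit, priming not stated in the labels) and gave neither tail length nor translation.

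RNA was profiled on 14 one-colour Illumina BeadChips. All oocytes carried, at the Rosa26 locus, human AGO2 fused to myc and GFP behind a loxP-flanked stop cassette, so that no group lacked the transgene, and no group held Cre without it. Zp3-Cre, driven by the promoter of an oocyte-specific zona pellucida gene, was absent in Cre-negative and present in Cre-positive oocytes. A set without mimic held 4 Cre-negative and 4 Cre-positive samples, and a set injected with 2 µM miR-15a mimic, a synthetic copy of that microRNA, held 3 and 3. What the set without mimic was injected with, the strain, the age and the number of mice or oocytes behind a sample were not stated in the labels, so p-values measure only the spread between these samples. All mice had been primed with 5 units of PMSG, a gonadotropin, 48 h before injection, and the injected oocytes were kept overnight in medium with 2 µM milrinone, which holds meiotic arrest. The stored mRNAs were therefore observed before the stage at which they are normally activated.

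The question put to the member genes was whether their RNA level changed with Cre, which switches on the AGO2 transgene, without or with the injected mimic. The level of the microRNA itself was not measured. The mature sequence of miR-15a is shown because its mimic defines the second set. The labels do not state which strand the mimic copies. The 5p strand of mouse miR-15a in RefSeq (GRCm38.p6, chr14:61632075-61632096, minus strand) is given with its seed, bases 2 to 8, in capitals.
mmu-miR-15a-5p: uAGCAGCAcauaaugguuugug

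Signals are given as log2 intensity after background correction and quantile normalization within each set. The sets were deposited as separate tables, and their levels are not compared. Between 45.3% and 53.4% of the probes were detected (detection p under 0.05) on an array. The lowest share belonged to Cre_pos replicate 1 without mimic, against 51.7% or more on the other arrays of its set. Cre_pos replicate 4 of that set correlated least with the others, at a median r of 0.977. Ago2, examined as a check of the Cre labels, did not overlap between the groups and stood higher with Cre. The difference was 1.97 without and 2.35 with mimic on the log2 scale (limma adjusted p = 2.04e-08 and 0.000338). The probe is named for mouse Ago2, and whether it reads the human transgene, the mouse gene or both was not tested. All 11 measured oocyte markers were detected in both sets. Of 11 granulosa and cumulus markers 4 were detected without mimic (FSH receptor, kit ligand, Gja1 and Nr5a2) and 5 with mimic (the same and Inhba). Most markers of this list were not detected. The median log2 signal of the list was 4.33 without and 4.93 with mimic. The lowest signals that counted as detected on any array were 4.35 and 4.97. Of 8 theca and stroma markers 1 was detected, and of 7 blood and immune markers 2 and 1. The summed linear signal of the granulosa markers ranged from 163 to 219 in Cre-negative and from 164 to 232 in Cre-positive samples without mimic. With mimic it ranged from 522 to 538 and from 545 to 617, so these groups did not overlap. The summed signal of the 11 oocyte markers with mimic did not overlap either, and was also higher with Cre. It ranged from 27874.5 to 29523.9 in Cre-negative and from 29623.3 to 33403.9 in Cre-positive samples. The separation with mimic was therefore not particular to the granulosa markers. Of all single features with mimic, 12.6% did not overlap in either direction, and no such share was computed for sums. With mimic 2 of the 11 oocyte markers had an unadjusted p under 0.05, and 0 passed (limma, lowest adjusted p = 0.644). No single granulosa marker passed with mimic (limma, unadjusted p of 0.197 or more). The part of granulosa RNA in the results was not tested.

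The RNA of 7 genes was measured in every sample: Mos, Slbp, Spin1, Cpeb1, Dazl, Ybx2 and Pabpn1l were detected on all 14 arrays by their brightest probe. Plat was the exception. None of the 7 passed the test for a Cre effect in either set, at an adjusted p under 0.05 over all features tested (limma, 0 of 7 in each set and 0 of 7 at an unadjusted p under 0.05). Over all features the share called was 0.0419% of 9546 without mimic and 0.132% of 9883 with mimic, so that 0 calls among 7 genes is near this background. An unadjusted p under 0.05 was reached by 4.67% and 7.50% of all features. Signals are relative to the other RNA of the same sample, and in bulk RNA fewer cells of a type and less RNA per cell cannot be told apart.

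**Figure D1:**
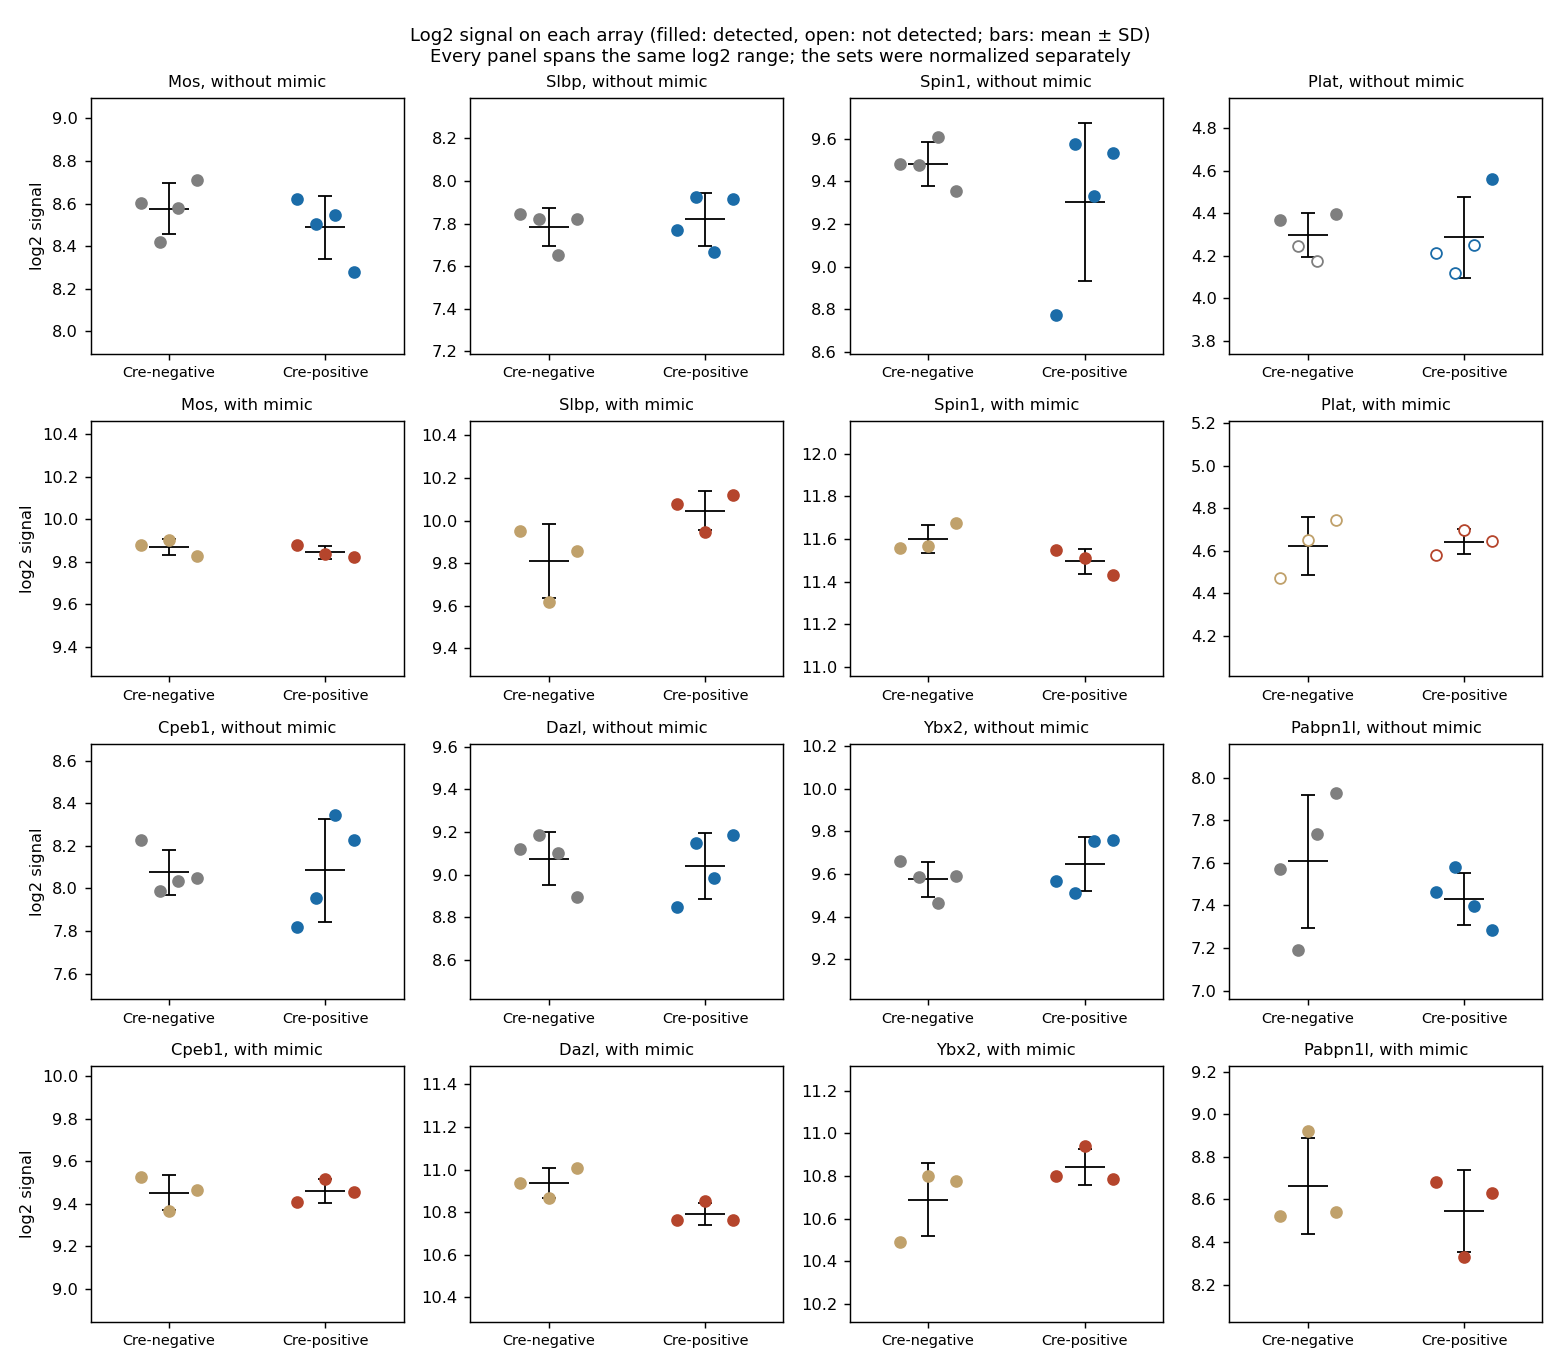
Log2 signal of the 8 measured genes on each array, by Cre status, with the mean ± SD of each group (n = 4 without mimic, n = 3 with mimic). Every panel spans the same number of log2 units, open points are arrays without detection, and Cre-negative and Cre-positive points overlap in all panels except those of Spin1 and Dazl with mimic.

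Among the stored mRNAs, Mos encodes the kinase that activates the MAP kinase cascade during maturation and holds the egg at metaphase of the second division. Its log2 signals without mimic were 8.60, 8.42, 8.58 and 8.71 in Cre-negative and 8.62, 8.51, 8.55 and 8.28 in Cre-positive samples. With mimic they were 9.88, 9.90 and 9.83 in Cre-negative and 9.88, 9.84 and 9.82 in Cre-positive samples. The groups overlapped in both sets, and Cre_pos replicate 4 was the lowest array without mimic. The difference, Cre-positive minus Cre-negative, was -0.088 ± 0.109 SE without mimic (n = 4 and 4, limma adjusted p = 0.957, 95% interval -0.32 to 0.14). It moved between -0.14 without Cre_neg replicate 2 and -0.018 without Cre_pos replicate 4. With mimic it was -0.026 ± 0.0811 SE (n = 3 and 3, limma adjusted p = 0.961, interval -0.21 to 0.16). With mimic Mos had the smallest spread of the 7 genes, a pooled SD of 0.0342 against a median of 0.147 over all features tested.

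Slbp encodes the stem-loop binding protein, which binds the 3′ end of histone mRNAs and accumulates during maturation. Without mimic its log2 signals were 7.84, 7.82, 7.65 and 7.82 in Cre-negative and 7.77, 7.92, 7.67 and 7.92 in Cre-positive samples. The groups overlapped, though both Cre-positive samples at 7.92 lay above every Cre-negative sample. The difference was 0.035 ± 0.103 SE (limma adjusted p = 0.986, 95% interval -0.18 to 0.25). Its sign turned to -0.061 with median scaling. With mimic the signals were 9.95, 9.62 and 9.86 in Cre-negative and 10.08, 9.95 and 10.12 in Cre-positive samples. Here 2 of the 3 Cre-positive samples lay above every Cre-negative sample. The difference was 0.24 ± 0.114 SE, a 1.18-fold level with a 95% interval from 0.982- to 1.42-fold, the widest distance from 0 among the 7 genes in either set. It did not pass (limma p = 0.0715, adjusted p = 0.714, exact permutation p = 0.2, two-sided, n = 3 and 3). The adjusted p lay between 0.504 and 0.839 over 16 alternatives. The lowest unadjusted p among them was 0.0152 (limma, trend and robust settings). The unadjusted p was also under 0.05 without background correction, with a replicate block, with a spread shared by all groups and without Cre_neg replicate 1. The estimate rested in part on Cre_neg replicate 2, without which it was 0.14.

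Spin1 encodes spindlin, a chromatin reader that is abundant in oocytes and associates with the meiotic spindle. By its brighter probe (ILMN_2742626) the signals without mimic were 9.48, 9.48, 9.61 and 9.36 in Cre-negative and 8.77, 9.58, 9.33 and 9.53 in Cre-positive samples. Cre_pos replicate 1, the array with the fewest detected probes, stood lowest, and the other Cre-positive samples lay in the Cre-negative range or next to it. The difference was -0.18 ± 0.148 SE (n = 4 and 4, limma adjusted p = 0.948, interval -0.49 to 0.14), and -0.0011 without that array. Its pooled SD of 0.271 was the largest of the 7 genes, against a median of 0.160 over all features. The other probe (ILMN_1217480), annotated to another Spin1 transcript, read 6.26, 6.89, 6.63 and 6.38 in Cre-negative and 6.24, 6.18, 6.70 and 6.44 in Cre-positive samples. By that probe Cre_pos replicate 2 was the lowest and Cre_pos replicate 1 next to it, and the difference was -0.15 ± 0.143 SE (limma adjusted p = 0.956 with every probe tested).

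With mimic the brighter Spin1 probe gave 11.56, 11.57 and 11.68 in Cre-negative and 11.55, 11.51 and 11.43 in Cre-positive samples. The groups did not overlap, but the nearest samples stood next to each other at 11.55 and 11.56. The difference was -0.10 ± 0.0870 SE (limma adjusted p = 0.843, exact permutation p = 0.1, the smallest that 3 against 3 can give). The other probe stood on the other side of 0, at 0.036, with 8.07, 8.16 and 8.28 in Cre-negative and 8.06, 8.32 and 8.24 in Cre-positive samples.

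Plat encodes tissue plasminogen activator, the classic example of an mRNA that is polyadenylated and translated when mouse oocytes mature. Its single probe was detected on 2 of 4 Cre-negative and 1 of 4 Cre-positive arrays without mimic, and on 0 of 6 arrays with mimic. It did not pass the filter on dim probes in either set, and no fold is given. Its log2 signals were 4.37, 4.24, 4.18 and 4.39 in Cre-negative and 4.21, 4.12, 4.25 and 4.56 in Cre-positive samples. The lowest signal that counted as detected on these arrays lay between 4.35 and 4.53. With mimic the signals lay between 4.48 and 4.75, below the lowest detected signals of 4.97 to 5.07. Plat thus stood near the detection limit without mimic, above it on 3 of 8 arrays, and below it on all 6 arrays with mimic, which does not show that the transcript was absent.

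Among the RNA-binding regulators, Cpeb1 gave log2 signals of 8.23, 7.99, 8.04 and 8.05 in Cre-negative and 7.82, 7.95, 8.34 and 8.23 in Cre-positive samples without mimic. With mimic it gave 9.53, 9.36 and 9.46 in Cre-negative and 9.41, 9.52 and 9.45 in Cre-positive samples. The Cre-positive samples without mimic lay on either side of the Cre-negative ones, and with mimic within their range. The difference was 0.011 ± 0.122 SE without and 0.0081 ± 0.0888 SE with mimic (limma adjusted p = 0.997 and 0.988), the smallest of the 7 genes. The 95% intervals ran from 0.842- to 1.20-fold without and from 0.871- to 1.16-fold with mimic.

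Dazl, which encodes a germ-cell RNA-binding protein that promotes translation, gave 9.12, 9.18, 9.10 and 8.90 in Cre-negative and 8.85, 9.15, 8.99 and 9.18 in Cre-positive samples without mimic. These groups overlapped, with Cre_pos replicate 1 lowest, and the difference was -0.034 ± 0.110 SE (limma adjusted p = 0.989, 95% interval -0.27 to 0.20). It was 0.031 without that array. With mimic the signals were 10.94, 10.87 and 11.01 in Cre-negative and 10.76, 10.85 and 10.76 in Cre-positive samples. Every Cre-positive sample was lower than every Cre-negative sample, the nearest by 10.85 against 10.87. The difference was -0.14 ± 0.0869 SE, a 1.11-fold lower level (limma p = 0.137, adjusted p = 0.776, exact permutation p = 0.1, n = 3 and 3). Dazl therefore did not pass. Of the 7 genes, 2 (Spin1 and Dazl) had groups that did not overlap with mimic, both lower in Cre-positive samples, and 6.25% of all features did so in that direction. Without mimic 0 of 7 did so, against 1.83% of all features with Cre-positive samples lower and 2.91% in either direction. The share in either direction with mimic was 12.6%. With mimic, Spin1 and Dazl were both lowest on Cre_pos replicate 3, the array of that set with the fewest detected probes (51.1%). Their signals correlated over the arrays of that set at r = 0.817, so the 2 genes are not independent observations.

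Ybx2 was measured by a bright and a dim probe. The bright probe (ILMN_3086192) gave 9.66, 9.59, 9.47 and 9.59 in Cre-negative and 9.57, 9.51, 9.75 and 9.76 in Cre-positive samples without mimic. With mimic it gave 10.49, 10.80 and 10.78 in Cre-negative and 10.80, 10.94 and 10.78 in Cre-positive samples. The groups overlapped in both sets, and Cre_neg replicate 1 stood low with mimic. The difference was 0.072 ± 0.103 SE without and 0.15 ± 0.113 SE with mimic (limma adjusted p = 0.961 and 0.809). Without that low array the difference with mimic was 0.052. The dim probe (ILMN_3014935) was detected on 5 of 8 arrays without and 5 of 6 with mimic, at 4.22 to 4.83 and 4.86 to 5.35. Its differences were 0.13 and -0.089, so the probes disagreed in sign with mimic, where neither passed.

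Pabpn1l encodes a poly(A)-binding protein of oocytes and early embryos. Its log2 signals without mimic were 7.57, 7.19, 7.74 and 7.93 in Cre-negative and 7.46, 7.58, 7.40 and 7.28 in Cre-positive samples. The Cre-negative samples spread over a wider range than the Cre-positive ones and enclosed them. The difference was -0.18 ± 0.138 SE (limma adjusted p = 0.948, 95% interval 0.723- to 1.08-fold), and it moved between -0.31 without Cre_neg replicate 2 and -0.07 without Cre_neg replicate 4. With mimic the signals were 8.52, 8.92 and 8.54 in Cre-negative and 8.68, 8.33 and 8.63 in Cre-positive samples. The groups overlapped and the difference was -0.12 ± 0.147 SE (limma adjusted p = 0.897). It was 0.015 without Cre_neg replicate 2 of this set.

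**Figure D2:**
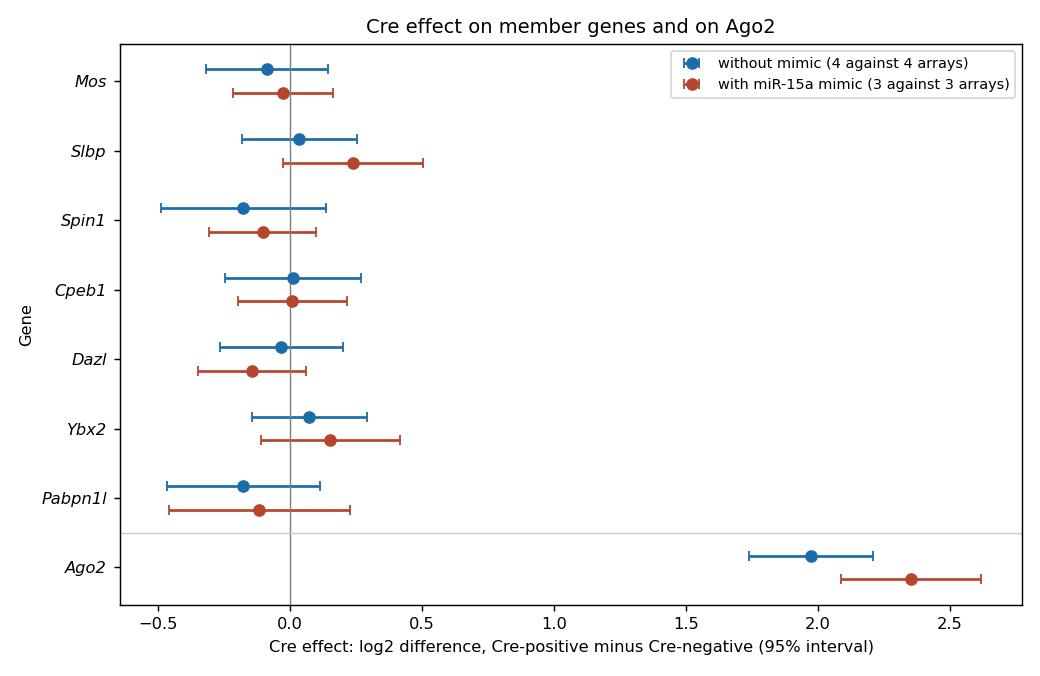
Cre effect (log2 difference, Cre-positive minus Cre-negative) of the 7 genes that passed the filter and of Ago2, with 95% intervals from limma, without mimic (4 against 4 arrays) and with mimic (3 against 3 arrays). All intervals of the 7 genes include 0 and reach from -0.49 to 0.50, while Ago2 lies at 1.97 and 2.35.

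Taking the 7 genes side by side, the Cre effects ran from -0.18 to 0.072 without mimic and from -0.14 to 0.24 with mimic. The medians were -0.034 and -0.026, beside -0.0061 and 0.0019 over all features tested, and 4 of 7 genes lay below 0 in each set. In fold terms the 95% intervals reached from 0.712 to 1.22 without and from 0.727 to 1.42 with mimic. A p that missed the threshold therefore does not show equal levels. Whether the mimic altered the Cre effect was tested as the difference of the effects in a fit of all 4 groups. No gene of 7 passed (limma adjusted p = 0.9999 for each, 0 of 7 at an unadjusted p under 0.05), where 0% of 9109 features passed and 4.54% had an unadjusted p under 0.05. The largest difference was that of Slbp, at 0.20 ± 0.149 SE (95% interval -0.11 to 0.52), followed in size by Dazl at -0.11 ± 0.146 SE.

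Over 21 pairs of genes the correlation of log2 signals had a median of -0.042 over the 8 arrays without mimic and -0.15 over the 6 arrays with mimic, and 13 pairs had the same sign in both. Spin1 and Dazl correlated at r = 0.810 and 0.817, and Mos and Pabpn1l at 0.782 and 0.635. Cpeb1 and Pabpn1l correlated at -0.153 without and -0.914 with mimic, the largest in size. Mos and Dazl stood at -0.743 and -0.034, and Cpeb1 and Ybx2 at 0.778 and -0.286. These values are a description, since the arrays of a set share a table and differ in detection. Of the 7 genes, 3 were at their lowest without mimic on Cre_pos replicate 1, namely Spin1, Cpeb1 and Dazl, at deviations from the set mean of -0.62, -0.26 and -0.21. Mos and Ybx2 did not share this low reading. The genes most alike in pattern, ranked by the lower r of the 2 sets among 8326 named genes, were Gas8 for Mos, Ino80c for Slbp, Psg18 for Spin1, Tmem60 for Cpeb1, Csnk1a1 for Dazl, Otoa for Ybx2 and Slc22a13 for Pabpn1l. Their r lay between 0.820 and 0.960 without mimic and between 0.824 and 0.918 with mimic, and each is the best of many compared over few arrays.

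**Figure D3:**
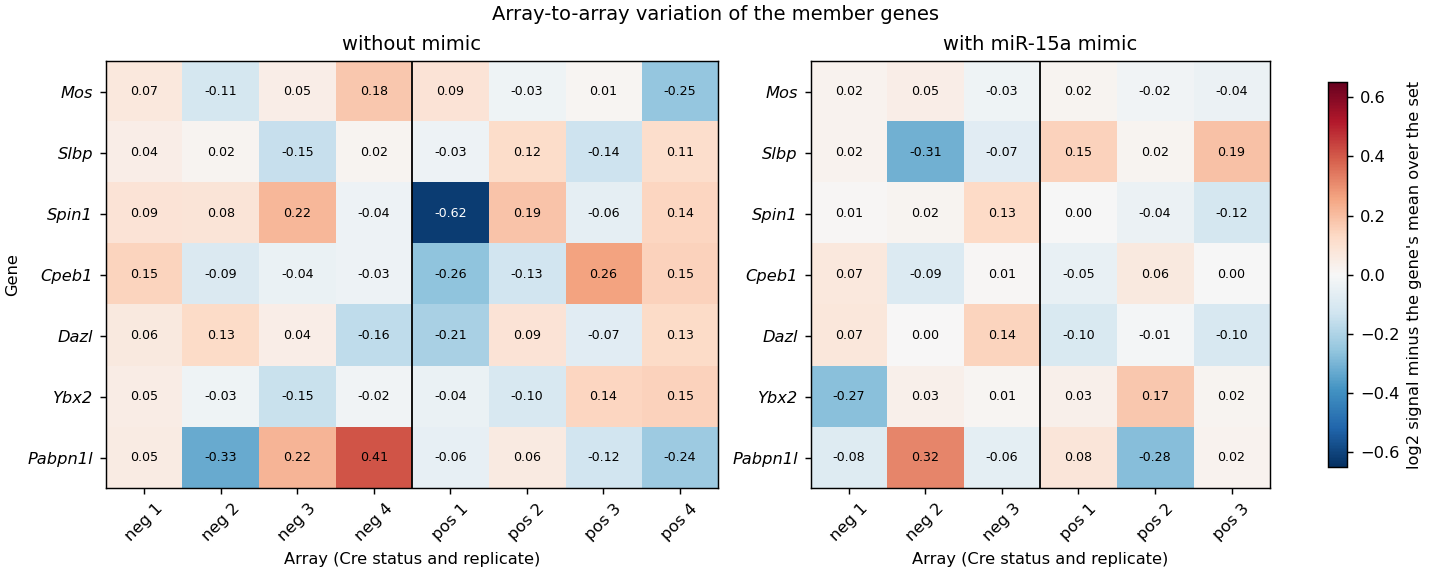
Log2 signal of each gene on each array minus its mean over the set, without mimic (8 arrays) and with miR-15a mimic (6 arrays), red for higher and blue for lower. The vertical line separates Cre-negative from Cre-positive arrays, and the lowest value is that of Spin1 on Cre_pos replicate 1, at -0.62.

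Other genes of the same pathway, in 4 lists, were also tested, and the difference of the 2 Cre effects passed for 0 of them too. Of 10 measured further dormant mRNAs, 0 passed in either direction in each set (limma), with 1 and 0 at an unadjusted p under 0.05, and the median Cre effect was -0.078 without and -0.059 with mimic. Tex19.1, a germline gene whose mRNA DAZL protein binds, stood at -0.28 ± 0.128 SE without mimic (unadjusted p = 0.0458, adjusted p = 0.948). Btg4, the adaptor of the deadenylase that clears maternal mRNA, stood at 0.041. With mimic the smallest p-values in each direction belonged to Cnot6l, a deadenylase subunit, at -0.15, and to the spindle factor Tpx2, at 0.052. In the difference of the effects they belonged to the checkpoint gene Bub1b (0.27) and to Orc6 of the origin recognition complex (-0.086).

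Of 12 measured genes of the polyadenylation machinery 0 passed in each set, with medians of 0.022 and 0.0084 (1 and 0 at an unadjusted p under 0.05). Cpsf2, a subunit of the factor that recognises the polyadenylation signal, had the smallest unadjusted p of the pathway, at -0.37 ± 0.106 SE without mimic (unadjusted p = 0.00325, limma adjusted p = 0.797). With mimic it stood at 0.13 ± 0.192 SE, and the difference of the effects was 0.50 ± 0.205 SE (unadjusted p = 0.0265, limma adjusted p = 0.9999). Cpsf3, the endonuclease of the same complex, stood at 0.10 without mimic. With mimic Cpsf4 stood at 0.18 and the poly(A) polymerase Papolg at -0.14. Cpeb4, a paralogue of Cpeb1, had a difference of the effects of -0.20.

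Of 19 measured genes of maternal ribonucleoprotein particles and repressors 0 passed, with medians of 0.016 without and -0.046 with mimic (0 and 3 at an unadjusted p under 0.05). The RNA-binding protein gene Msi2 stood at -0.59 ± 0.174 SE with mimic by its brightest probe (unadjusted p = 0.0106, limma adjusted p = 0.515) and at -0.41 by its other probe. That other probe, the brighter one without mimic, stood at 0.0028 there, and the difference of the effects by it was -0.41 ± 0.283 SE. By the probe that stood at -0.59 with mimic, the difference of the effects was -0.42 (limma unadjusted p = 0.0379). Eif4e1b, an oocyte cap-binding protein that represses translation, stood at 0.29 with mimic by one probe and at -0.090 by the other. Eif4e stood at 0.16 and Elavl2 at -0.12 without mimic, and Eif4enif1 had a difference of the effects of 0.17 by its brighter and -0.082 by its other probe.

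Of 6 measured further poly(A)-binding proteins and partners 0 passed, with medians of 0.077 and -0.015 (1 and 1 at an unadjusted p under 0.05). By the brightest probe of each gene, all 6 stood above 0 without mimic, 3 with mimic and 0 in the difference of the effects. The medians over all features were -0.0061, 0.0019 and 0.0054 in these comparisons. Paip2b, an inhibitor of poly(A)-binding protein, stood at 0.31 ± 0.128 SE without and 0.27 ± 0.113 SE with mimic (unadjusted p = 0.0280 and 0.0433, limma adjusted p = 0.948 and 0.644). Its second probe gave 0.29 and 0.36, and another probe -0.25 and -0.017, so the probes disagreed. Pabpc4, a cytoplasmic poly(A)-binding protein, stood at -0.13 with mimic and had a difference of the effects of -0.20.

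**Figure D4:**
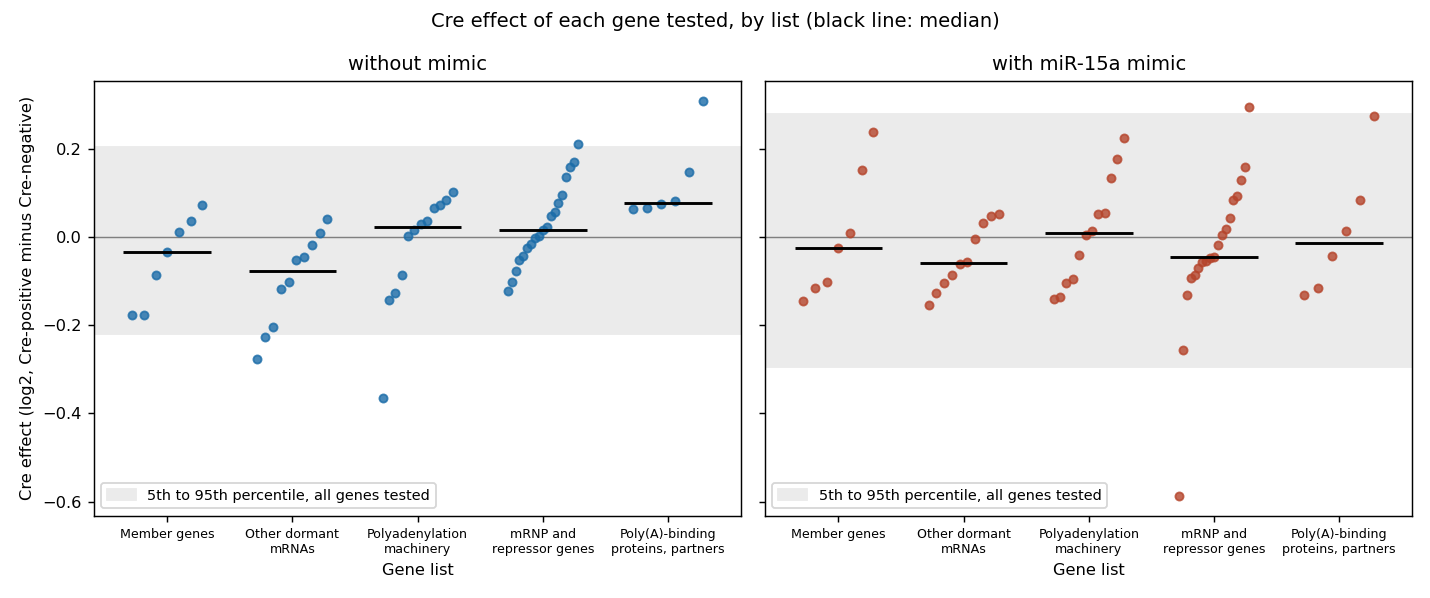
Cre effect (log2, Cre-positive minus Cre-negative) of every measured gene in the member list and in 4 further lists of the pathway, without and with mimic, each list with its median as a black line. The grey band spans the 5th to 95th percentile of all features tested, -0.22 to 0.20 without and -0.30 to 0.28 with mimic, and the points outside it include Cpsf2 without mimic and Msi2 with mimic.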

How the data were processed

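Per the file headers, the authors deposited, set by set, 1 table of raw intensity with detection p-values and 1 normalized table. The deposited normalized tables held log2 signal, which quantile normalization of log2 raw intensity gave back to within 4.97e-14. The deposited series value table repeats them to within 5.00e-09, uncentred, with medians of 6.38 and 7.24. The scanner is not given in the sources used.

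Raw intensity was corrected with nec of limma 3.58.1 (R 4.3.3; negative controls inferred from detection p-values, offset 16), put on the log2 scale and quantile normalized by set. The offset shrinks fold changes of dim probes. Symbols were those of GEO's platform annotation: 23978 probes had 1 symbol, and 1719 with several or none entered under their own ID. Of the former, 23962 matched RefSeq genes (GRCm38.p6), which changed 0 symbols. Features needed detection p under 0.05 on at least 4 arrays without and 3 with mimic, and the brightest probe stood for a gene. Groups were compared with limma (lmFit, eBayes, two-sided, Benjamini-Hochberg over all features), and single genes also by exact permutation. No 2 arrays were identical, and array pairs correlated at 0.975 or more.

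Named pathway genes were those past the threshold or, failing that, the smallest p in each direction for each list and comparison. Members and lists were chosen with earlier results of these data known. Zar1 and Pabpc1l were looked up by symbol, older symbol and gene ID. Positions of the member genes are not given here. The tests were first tested on simulated data. Alternatives were no background correction, an offset of 1, median scaling, 2 other filters, every probe tested, trend and robust settings, array weights, a replicate block, a shared spread and leaving out each array. Slide and scan are not named in the files used, and that block was not run. Figures were drawn with Python 3.11.15.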

Additional observations from a re-analysis of the deposited data

Results flagged for a closer look

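Slbp on Cre_neg replicate 3 without mimic read 7.65, apart from the other Cre-negative samples at 7.82 to 7.84. The gap was 0.882 of the range of the group, above Dixon's critical value for 4 samples. It was the only such sample among 20 groups of 4 checked (10 probes, Cre-negative and Cre-positive), and chance marks about 5% of groups. Without that array the Cre effect of Slbp was -0.011 in place of 0.035.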

How the results depend on the processing

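No member gene was called in any comparison under any alternative run (limma, adjusted p of 0.504 or more in 399 member values, 7 of them with an unadjusted p under 0.05). Most of those 7 belonged to Slbp with mimic, and the rest to Dazl with mimic and Pabpn1l without mimic. The sign turned in 33 of the 399 values, 26 of them by leaving out 1 array. Under median scaling, which moved the median of all features from -0.0061 to -0.072 without mimic, Slbp stood at -0.061 and Cpeb1 at -0.075 there, Cpeb1 at -0.0027 with mimic and at 0.072 in the difference of the effects. With array weights Cpeb1 stood at -0.029 without mimic and 0.060 in the difference, and Pabpn1l at -0.047 in the difference. Leaving out single arrays gave, without mimic, -0.011 to 0.086 for Slbp, -0.075 to 0.10 for Cpeb1 and -0.094 to 0.031 for Dazl. With mimic it gave -0.035 to 0.046 for Cpeb1 and -0.19 to 0.015 for Pabpn1l. In the difference it gave -0.0080 to 0.12 for Mos, -0.10 to 0.16 for Spin1, -0.092 to 0.083 for Cpeb1, -0.020 to 0.14 for Ybx2 and -0.045 to 0.20 for Pabpn1l. Over all features, the 4 calls without mimic became 2 with an offset of 1 and 2 with no filter. The 13 calls with mimic became 21 without background correction, 21 with median scaling, 26 with trend and robust settings, 25 with a spread shared by all groups, and 2 to 13 with single arrays left out (2 without Cre_neg replicate 1 or 2 or Cre_pos replicate 2, 6 without Cre_pos replicate 1 and 7 without Cre_neg replicate 3 of that set). The 0 calls in the difference became 3 without background correction, 2 with median scaling, 1 with no filter, 2 with trend and robust settings, 3 with array weights and 0 to 4 with single arrays left out (1 without Cre_neg replicate 4 of the set without mimic, 4 without Cre_pos replicate 3 with mimic). The cause of these changes was not tested. With the replicate number as a block (replicate block), 4, 3 and 0 features were called and no member. Same-numbered samples without mimic deviated together at r between -0.069 and 0.0084, and none correlated best with its own number. With mimic r lay between 0.038 and 0.21, and some samples, but not all, correlated best with their own number. Whether the numbers are pairs with mimic cannot be told from these values. The labels give no pairing, so the main fit took none. The number of arrays limits precision, and detection limits Plat and the dim Ybx2 probe.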
